A study of Mus musculus with 8 samples.

Results

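A set of 10 genes of protein folding and stress signalling in the endoplasmic reticulum (ER) was followed through the knock-down (KD) of *Eftud2*. The genes were picked by name and matched through the gene symbol to the deposited table of counts, where 10 of 10 were found among 55385 genes. They comprise the sensors and transcription factors *Xbp1* and *Atf6*, the chaperones *Hspa5*, *Hsp90b1*, *Calr*, *Canx* and *Pdia4*, the co-chaperones *Dnajb9* and *Sdf2l1*, and the degradation factor *Herpud1*. *Eftud2* encodes a GTPase of the U5 small nuclear ribonucleoprotein, a core part of the spliceosome. The cells were R1 mouse embryonic stem cells (mESCs) with the genotype WT, grown in N2B27 with 2i and Lif on plates coated with poly-L-ornithine and laminin. All groups received lentivirus for 2 days and puromycin for 3 days, so that each library came from a selected population of infected cells and the controls carried a hairpin too. The hairpins shRNA1 and shRNA2 target *Eftud2* (3 libraries each), whereas nt-shRNA is a non-targeting control (2 libraries). The comparison asks how mRNA levels of the ER folding machinery differ when the splicing machinery is perturbed.

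Proteins that are secreted or sit in membranes fold in the ER, where HSP70 and HSP90 family chaperones, sugar-binding chaperones and disulfide isomerases act on them. When unfolded proteins build up, the sensors IRE1, PERK and ATF6 start the unfolded protein response (UPR). IRE1 removes a short intron from *Xbp1* mRNA outside the spliceosome, ATF6 is cut in the Golgi to release a transcription factor, and PERK phosphorylates eIF2α, which favours translation of ATF4. XBP1 and ATF6 raise transcription of chaperone and degradation genes, many of which share the ER stress response element (ERSE) in their promoters.

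The promoter sequences that hold this element are shown because they mark which of the 10 genes carry the same binding letters for ATF6 and the CCAAT-binding factor NF-Y. Windows of 300 bases (250 before to 50 after the RefSeq start, GRCm38.p6) were at hand for 9 of the 10 genes. Both strands were searched for the ERSE (CCAAT and CCACG with any 9 bases between them), for ERSE-II (ATTGG and CCACG with any 1 base between them) and for the core of the UPR element bound by XBP1 (TGACGTG). Each sequence reads 5′ to 3′ on the strand of its gene, and capitals mark the ERSE or ERSE-II match with 10 flanking bases on each side in lower case.
*Hspa5* (chr2:34772015-34772053, + strand): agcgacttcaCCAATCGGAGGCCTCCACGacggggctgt
*Hsp90b1* (chr10:86705523-86705666, - strand): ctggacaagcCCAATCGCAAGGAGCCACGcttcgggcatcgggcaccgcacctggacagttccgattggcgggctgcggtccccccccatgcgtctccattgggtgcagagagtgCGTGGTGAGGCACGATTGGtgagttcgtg
*Calr* (chr8:84847065-84847103, - strand): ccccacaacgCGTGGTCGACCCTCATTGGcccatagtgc
*Canx* (chr11:50325790-50325828, - strand): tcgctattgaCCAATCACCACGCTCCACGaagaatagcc
*Herpud1* (chr8:94386367-94386397, + strand): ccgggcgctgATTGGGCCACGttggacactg

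The ERSE was present in 4 of the 9 windows, those of *Hspa5*, *Hsp90b1*, *Calr* and *Canx*, and *Hsp90b1* held 2 matches. It was found in 39 of all 32851 mouse windows of the same length (0.119%). ERSE-II was present for *Herpud1* and in 12 of all windows (0.0365%). The core of the UPR element was present for *Hspa5*, 157 to 151 bases before the start, and in 2.01% of all windows. An ERSE contains a CCAAT box by its definition, and that box alone was in 37.4% of windows and in those of 8 of the 9 genes. The windows of *Pdia4*, *Dnajb9*, *Sdf2l1* and *Xbp1* held neither ERSE nor ERSE-II, which says only that these letters were absent there. A match is a sequence description and no measure of binding, and the counts hold no data on factor binding.

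**Figure D1:**
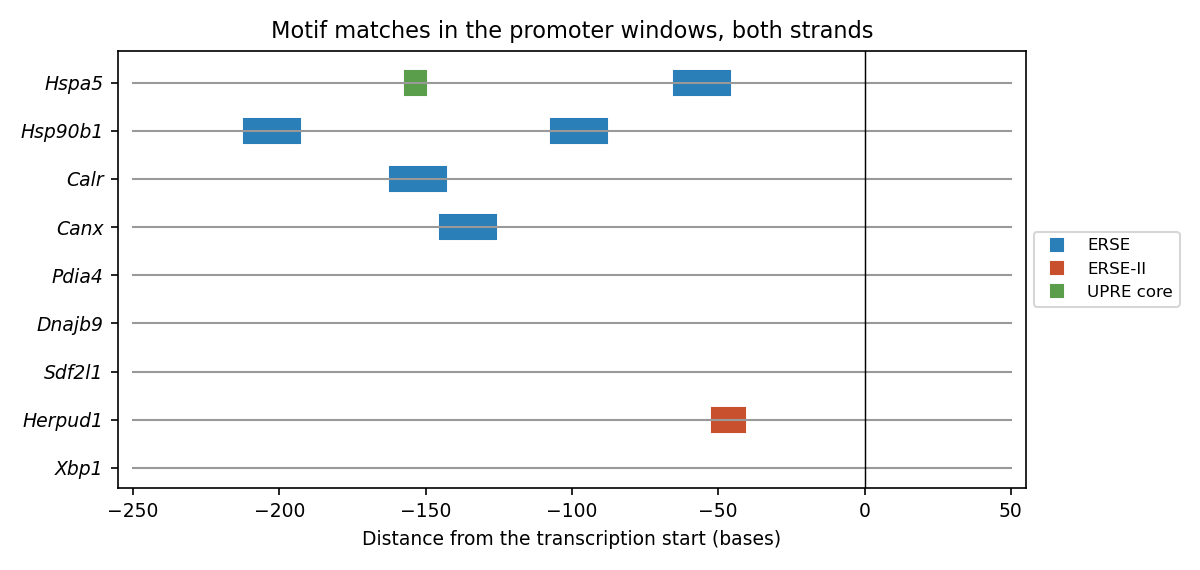
Positions of motif matches (coloured boxes) in the promoter windows of 9 genes, in bases from the RefSeq transcription start. The ERSE lies 65 to 47 bases before the start of *Hspa5* and 162 to 144 bases before that of *Calr*, and the ERSE-II of *Herpud1* lies 52 to 42 bases before its start.

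Libraries held 19569525 to 29871048 counts, so that 3 counts amounted to 0.1004 to 0.1533 CPM, the counts divided by library size. Levels per library are given as CPM scaled by edgeR's trimmed mean of M values (TMM), and fold changes with their 95% intervals and adjusted p-values come from edgeR's quasi-likelihood test over 17445 genes, with calls made at an adjusted p under 0.05. The targeted *Eftud2* was at 262.3 and 255.7 CPM with nt-shRNA, at 231.9, 229.2 and 225.3 with shRNA1 and at 198.2, 202.1 and 234.7 with shRNA2. Both KD groups lay below both controls. The mean was 88.3% of control with shRNA1, where the edgeR test was not passed (adjusted p = 0.0514), and 81.7% with shRNA2 (adjusted p = 0.00122), so that depletion of the mRNA was partial in these counts. Scaled by total counts alone, the log2 fold change with shRNA1 was -0.06 (adjusted p = 0.498) instead of -0.18. The test with shRNA1 was passed in 7 of 15 alternative settings, DESeq2 (-0.18, adjusted p = 0.0485) and the replicate block (-0.21, adjusted p = 0.0206) among them. Mean *Eftud2* TPM was 93.1 with shRNA1 and 89.5 with nt-shRNA. By qPCR scaled to mitochondrial rRNA, the paper reported a larger *Eftud2* KD with each hairpin, and its western blots showed less EFTUD2 protein. The 10 pluripotency markers were all detected, with a summed level of 7211 to 7345 CPM with nt-shRNA, 7363 to 7613 with shRNA1 and 7457 to 7896 with shRNA2. Single markers moved more than the sum, with 5 higher and 2 lower with shRNA1 (2 and 1 without nt-shRNA replicate 1, 7 and 1 with total counts as the only scaling) and 7 higher and 2 lower with shRNA2. These shares stand beside 13.8% higher and 17.1% lower of all genes with shRNA1 and 27.2% and 28.7% with shRNA2, and the shRNA2 values ran from -0.96 for *Dppa5a* to 1.32 for *Klf4* on the log2 scale. The 14 markers of differentiated and feeder cells summed to 49.02 to 56.93 CPM over the groups, with *Col1a2* called higher with both hairpins (1.27 and 1.66, from 0.30 and 0.557 CPM in the controls), *T* lower with shRNA1 (-0.81) and *Gata6* lower with shRNA2 (-0.75). The call on *T* was lost in 11 of 15 alternative settings, with DESeq2 and total counts as the only scaling among them, and that on *Col1a2* with shRNA1 without nt-shRNA replicate 1. The 8 markers of professional secretory cells, in which the UPR is prominent, summed to at most 0.2706 CPM. Their part in the results below was not tested.

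The ER genes were strongly expressed, and 10 of 10 passed the filter on low counts. Their raw counts per library ran from 374 for *Herpud1* with shRNA2 to 35172 for *Calr* with nt-shRNA. Levels were compared between genes as TPM, in which each count is divided by the deposited exon length and the library is scaled to a fixed sum. With nt-shRNA, *Calr* was the most abundant at 1236 TPM ± 35.3 (SD, n = 2), above 99.8% of genes. *Canx* (625.5 TPM), *Hsp90b1* (560.2 TPM), *Pdia4* (398.9 TPM) and *Hspa5* (391.8 TPM) followed. A gap then separated these 5 chaperones from the remaining genes, with *Sdf2l1* at 97.4 TPM, *Xbp1* at 69.6 TPM and *Herpud1* at 46.9 TPM. *Dnajb9* (16.1 TPM ± 0.675) and *Atf6* (15.5 TPM ± 0.442) were lowest, and their control libraries overlapped.

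This order by TPM was the same in the 3 groups, but some neighbours moved closer or apart. With shRNA2, the libraries of *Pdia4* (459.6 TPM ± 7.88, n = 3) and *Hspa5* (456.1 TPM ± 32.2) overlapped, as did those of *Herpud1* (28.8 TPM ± 3.43) and *Dnajb9* (26.6 TPM ± 1.38). *Dnajb9* and *Atf6* no longer overlapped in either KD group. Every other neighbouring pair was separated in every library of its group.

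**Figure D2:**
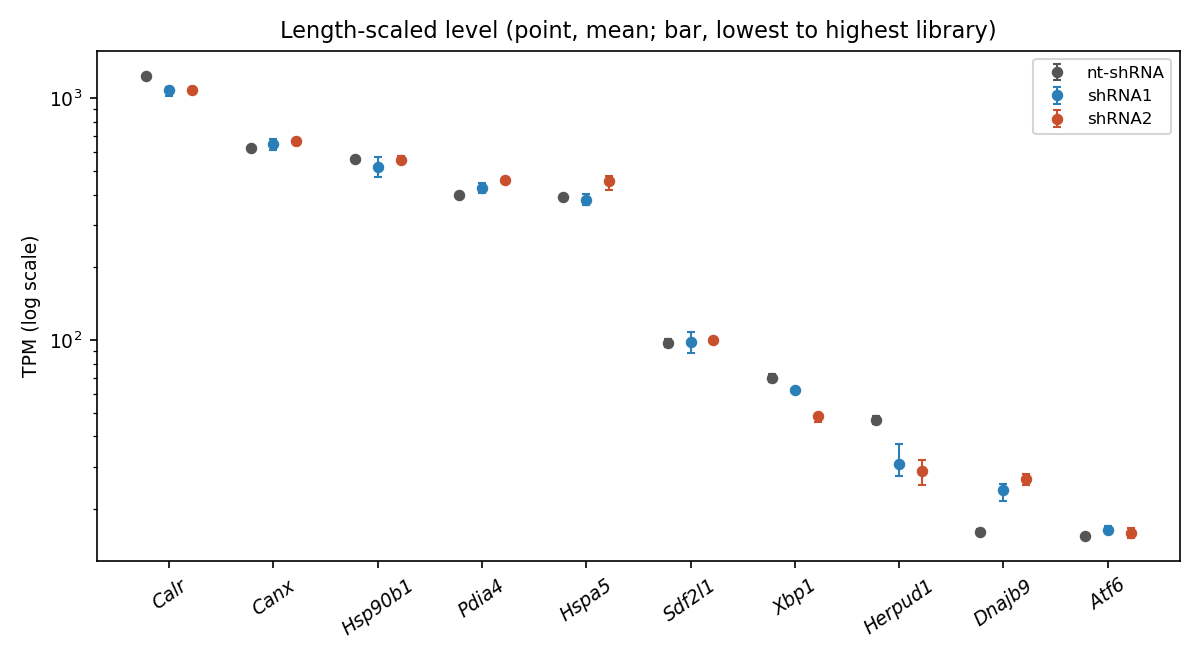
Length-scaled levels of the 10 genes (TPM, log axis) in the 3 groups, as means (points) with the lowest and highest library (bars). The 5 most abundant chaperones sit above the rest, and *Herpud1* and *Dnajb9*, at 46.9 and 16.1 TPM with nt-shRNA, reach 28.8 and 26.6 TPM with shRNA2.

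With the *Eftud2* hairpins, a part of these genes was called lower and 1, *Dnajb9*, higher. With shRNA1, 6 of 10 were called lower (*Herpud1*, *Calr*, *Xbp1*, *Hsp90b1*, *Hspa5* and *Canx*), while 17.1% of all tested genes were called lower. One of 10, *Dnajb9*, was called higher, beside 13.8% of all genes. With shRNA2, 5 of 10 were called lower (*Herpud1*, *Xbp1*, *Calr*, *Hsp90b1* and *Atf6*), beside 28.7% of all genes, and 1 of 10, again *Dnajb9*, higher, beside 27.2%. The median log2 fold change of the 10 genes was -0.25 with shRNA1 and -0.18 with shRNA2, where the median of all genes was -0.01 and 0.00. In TMM-scaled CPM, every KD library lay below both controls for 8 of the 10 genes with shRNA1 (30.2% of all genes) and for 7 of 10 with shRNA2 (36% of all genes). In TPM, only *Calr*, *Xbp1* and *Herpud1* lay below both controls in every KD library, with either hairpin. *Pdia4* and *Dnajb9* lay above both controls in every KD library on that scale. So did *Atf6* with shRNA1, and *Canx* and *Hspa5* with shRNA2. How many of all genes lie below or above the controls in TPM was not counted. Between libraries, TPM and TMM-scaled CPM of a gene differ only by a factor per library that all genes share. The differing positions of *Pdia4*, *Atf6*, *Canx* and *Hspa5* on these scales are therefore a common shift and no separate result for each gene. Without nt-shRNA replicate 1, 4 genes were called lower with shRNA1 (median -0.17) and 3 with shRNA2 (median -0.11). The same 2 control libraries serve both comparisons, so that their similarity is not independent evidence.

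Part of these counts depended on the scaling of the libraries. TMM factors were 0.9353 and 0.9618 for the controls and 1 to 1.036 for the KD libraries. Scaled by total counts alone, the median log2 fold change of all genes rose to 0.107 with shRNA1 and 0.093 with shRNA2, and the share of calls that were higher went from 44.7% to 70.5% and from 48.7% to 58.9%. Of the ER genes, 4 with shRNA1 and 3 with shRNA2 were then still called lower, with medians of -0.14 and -0.09. The summed level of the 10 genes was 4334 and 3954 CPM with nt-shRNA, 3504, 3266 and 3300 with shRNA1, and 3624, 3644 and 3455 with shRNA2. The control libraries were above all others on this scale. They were also above without TMM, where the 10 genes took 0.405% and 0.3799% of all counts with nt-shRNA, 0.3366% to 0.3578% with shRNA1 and 0.3503% to 0.3663% with shRNA2. Summed TPM, which differs by the division by length and by having no TMM factor, was 3453 and 3462 in the controls, 3205 to 3434 with shRNA1 and 3378 to 3511 with shRNA2, so that the controls fell within the range of shRNA2. In RNA from whole cultures, less RNA per cell and fewer cells that express a gene cannot be told apart.

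**Figure D3:**
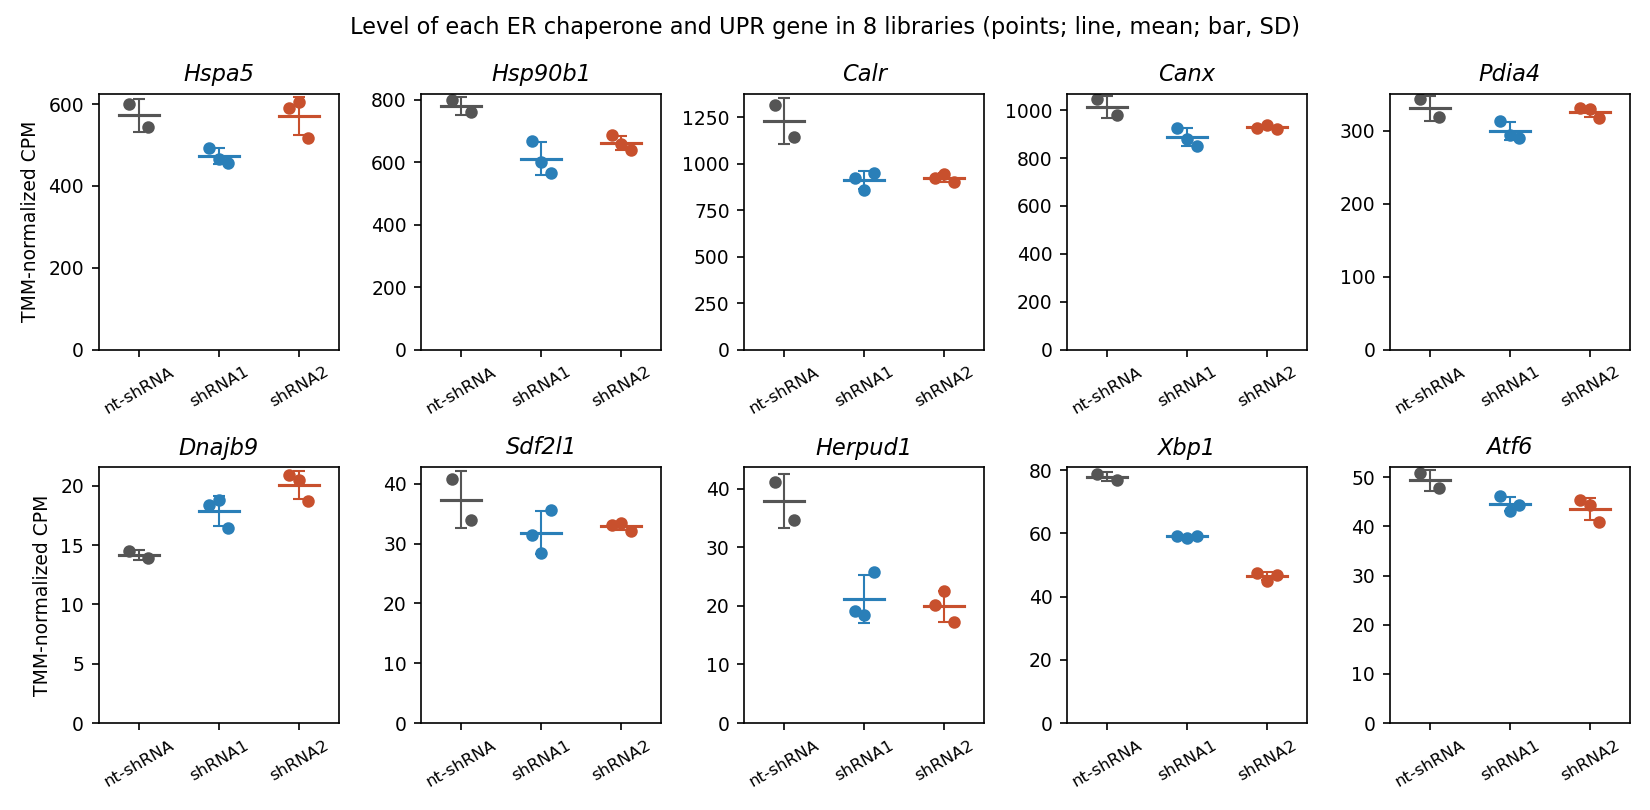
TMM-scaled CPM of each of the 10 genes in every library (points; line, mean; bar, SD), with the vertical axes starting at 0. *Xbp1* steps down from nt-shRNA through shRNA1 to shRNA2 without overlap, *Herpud1* is lower and *Dnajb9* higher in both KD groups, and *Hspa5* is lower with shRNA1, while its shRNA2 libraries overlap with the controls.

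*Xbp1* (ENSMUSG00000020484, chr11:5520659-5525893, + strand) encodes the transcription factor that IRE1 activates by cutting its mRNA. It was at 78.9 and 77.0 CPM with nt-shRNA, at 59.1, 58.7 and 59.3 with shRNA1, and at 47.5, 45.1 and 46.9 with shRNA2. The 3 groups did not overlap, and the SD within a group was at most 1.35 CPM. *Xbp1* fell by 24.2% with shRNA1 (log2 fold change -0.40, 95% interval -0.53 to -0.27, edgeR adjusted p = 1.0e-04). It fell by 40.4% with shRNA2 (-0.75, -0.88 to -0.61, adjusted p = 1.6e-08). The direct test of shRNA2 against shRNA1 was also passed (-0.35, -0.47 to -0.22, adjusted p = 2.2e-04). Counts per gene add the form cut by IRE1 to the uncut form, so the share of active *Xbp1* mRNA was not measured here.

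*Atf6* (ENSMUSG00000026663, chr1:170704674-170867771, - strand) encodes the membrane-bound sensor that is cleaved into a transcription factor. Its levels were 50.9 and 47.8 CPM with nt-shRNA, 46.1, 43.2 and 44.4 with shRNA1, and 45.3, 44.4 and 40.9 with shRNA2. All KD libraries lay below the controls in CPM, and the 2 KD groups overlapped. The difference was -0.15 on the log2 scale with shRNA1 (-0.30 to 0.00, edgeR adjusted p = 0.134) and -0.18 with shRNA2 (-0.33 to -0.03, adjusted p = 0.0412). In TPM, *Atf6* was at 15.2 to 15.8 with nt-shRNA, 16.1 to 17.1 with shRNA1 and 15.2 to 16.7 with shRNA2. On that scale every shRNA1 library was above both controls, and the shRNA2 libraries overlapped with them. The TPM differences were not tested. The call with shRNA2 was lost in 10 of 15 alternative settings, with DESeq2 (adjusted p = 0.0564) and without nt-shRNA replicate 1 (-0.14, adjusted p = 0.259) among them.

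*Hspa5* (ENSMUSG00000026864, chr2:34771970-34777547, + strand) encodes BiP, the HSP70 chaperone of the ER that also holds the UPR sensors inactive. It was measured at 600.6 and 544.5 CPM with nt-shRNA, at 493.8, 466.9 and 457.2 with shRNA1, and at 589.7, 605.2 and 516.9 with shRNA2. In CPM, the shRNA1 libraries were the lowest of the 8, and the shRNA2 libraries overlapped with the controls. *Hspa5* fell by 17.4% with shRNA1 (-0.28 on the log2 scale, -0.42 to -0.13, edgeR adjusted p = 0.00592). For shRNA2 it was -0.00 (-0.15 to 0.14, adjusted p = 0.959). In TPM, *Hspa5* was at 391.1 to 392.5 with nt-shRNA, 363.1 to 401.2 with shRNA1 and 418.9 to 475.2 with shRNA2. On that scale every shRNA2 library was above both controls, and the shRNA1 libraries overlapped with them. The TPM differences were not tested. The hairpins differed from each other, with *Hspa5* higher with shRNA2 by 0.27 on the log2 scale (0.14 to 0.41, adjusted p = 0.00286), and this call was kept in all 15 alternative settings. The shRNA1 call was lost without nt-shRNA replicate 1 (-0.20, adjusted p = 0.127) and with total counts as the only scaling (-0.16, adjusted p = 0.0691).

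*Hsp90b1* (ENSMUSG00000020048, chr10:86690209-86705509, - strand) encodes GRP94, the HSP90 chaperone of the ER. It was at 799.3 and 759.6 CPM with nt-shRNA, at 669.3, 599.5 and 566.2 with shRNA1, and at 686.7, 657.5 and 640.3 with shRNA2. Both KD groups lay below the controls and overlapped with each other. *Hsp90b1* fell by 21.5% with shRNA1 (-0.35, -0.49 to -0.21, edgeR adjusted p = 7.4e-04) and by 15.1% with shRNA2 (-0.24, -0.38 to -0.09, adjusted p = 0.00669). The shRNA2 call was lost without nt-shRNA replicate 1 (-0.20, adjusted p = 0.0714) and with total counts as the only scaling (-0.15, adjusted p = 0.0652). Exons of 3 other genes, with 1810014B01Rik on the opposite strand among them, cover 15.7% of its exon bases, and the counting used no strand and dropped fragments shared between genes.

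*Calr* (ENSMUSG00000003814, chr8:84841850-84846934, - strand) encodes calreticulin, a soluble chaperone that binds sugar chains on new glycoproteins. It reached 1318 and 1144 CPM with nt-shRNA, 926.0, 856.8 and 952.1 with shRNA1, and 926.2, 948.0 and 900.4 with shRNA2. Every KD library was below both controls, and the KD groups overlapped fully. *Calr* fell by 25.9% with shRNA1 (-0.43, -0.58 to -0.29, edgeR adjusted p = 9.8e-05) and by 24.9% with shRNA2 (-0.41, -0.56 to -0.27, adjusted p = 4.6e-05). The difference between the hairpins was 0.02 on the log2 scale, with an interval of -0.11 to 0.15.

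*Canx* (ENSMUSG00000020368, chr11:50293961-50325673, - strand) encodes calnexin, the membrane-bound relative of calreticulin. It stood at 1046 and 980.5 CPM with nt-shRNA, at 927.4, 880.6 and 852.5 with shRNA1, and at 924.4, 937.6 and 923.8 with shRNA2. The controls were above all KD libraries in CPM. *Canx* fell by 12.5% with shRNA1 (-0.19, -0.32 to -0.07, edgeR adjusted p = 0.0209), and the difference with shRNA2 was -0.13 (-0.25 to 0.00, adjusted p = 0.0843). These calls were unsteady, since the shRNA1 call was lost in 5 of 15 alternative settings (adjusted p up to 0.306), and the shRNA2 difference passed the test in 3, with DESeq2 (adjusted p = 0.0492) among them. Relative to CPM, TPM shifts all genes of a library by the same factor. In TPM, *Canx* was at 614.0 to 637.0 with nt-shRNA, 610.0 to 678.9 with shRNA1 and 663.4 to 674.7 with shRNA2. There, every shRNA2 library was above both controls, and the shRNA1 libraries overlapped with them. The TPM differences were not tested. Whether *Calr* and *Canx* changed by different amounts was not tested.

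*Pdia4* (ENSMUSG00000025823, chr6:47796141-47813430, - strand) encodes a disulfide isomerase, which forms and rearranges disulfide bonds. It was at 342.8 and 318.1 CPM with nt-shRNA, at 313.3, 294.7 and 290.1 with shRNA1, and at 330.6, 329.6 and 317.8 with shRNA2. In CPM, the shRNA1 libraries were below the others, and the shRNA2 libraries overlapped with the controls. In TPM, every KD library was above both controls, at 406.0 to 448.7 with shRNA1 and 454.0 to 468.6 with shRNA2 against 393.5 to 404.3 with nt-shRNA. The TPM differences were not tested. From the counts, no call was made with shRNA1 (-0.14, -0.27 to -0.02, edgeR adjusted p = 0.0802), with shRNA2 (-0.02, -0.15 to 0.11, adjusted p = 0.799) or between the hairpins (0.12, 0.01 to 0.24, adjusted p = 0.0859).

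*Dnajb9* (ENSMUSG00000014905, chr12:44205559-44210326, - strand) encodes ERdj4, an HSP40 co-chaperone that brings BiP to IRE1 and to proteins bound for degradation. It was at 14.5 and 13.9 CPM with nt-shRNA, at 18.4, 18.8 and 16.4 with shRNA1, and at 20.9, 20.5 and 18.7 with shRNA2. Every KD library was above both controls. *Dnajb9* was 1.26-fold higher with shRNA1 (0.33 on the log2 scale, 0.12 to 0.54, edgeR adjusted p = 0.0172) and 1.41-fold higher with shRNA2 (0.50, 0.29 to 0.71, adjusted p = 3.4e-04). The shRNA2 call was kept in all 15 alternative settings. The shRNA1 call was lost in 4 of the 8 fits that each left out a library, those without shRNA1 replicate 1 (0.31, adjusted p = 0.0562), shRNA1 replicate 2 (0.30, adjusted p = 0.0758), nt-shRNA replicate 1 (0.36, adjusted p = 0.0703) or nt-shRNA replicate 2 (0.30, adjusted p = 0.124).

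*Sdf2l1* (ENSMUSG00000022769, chr16:17130138-17132383, - strand) encodes a partner of ERdj3 that helps the BiP cycle. Its levels were 40.7 and 34 CPM with nt-shRNA, 31.5, 28.4 and 35.6 with shRNA1, and 33.1, 33.4 and 32.1 with shRNA2. The shRNA1 libraries overlapped with the controls, whereas the shRNA2 libraries lay below them. Neither difference passed the test, with -0.23 for shRNA1 (-0.42 to -0.03, edgeR adjusted p = 0.0773) and -0.18 for shRNA2 (-0.38 to 0.01, adjusted p = 0.106). Either control decided these values: without nt-shRNA replicate 2 they were -0.35 and -0.31 (adjusted p = 0.0338 and 0.0308), and without nt-shRNA replicate 1 -0.09 and -0.05 (adjusted p = 0.645 and 0.741).

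*Herpud1* (ENSMUSG00000031770, chr8:94386438-94395377, + strand) encodes a membrane protein of ER-associated degradation, which returns misfolded proteins to the cytosol for the proteasome. It was at 41.1 and 34.6 CPM with nt-shRNA, at 19.2, 18.5 and 25.8 with shRNA1, and at 20.1, 22.5 and 17.2 with shRNA2. The lowest control was above the highest KD library, and the KD groups overlapped. *Herpud1* fell by 43.7% with shRNA1 (-0.83, -1.09 to -0.57, edgeR adjusted p = 6.8e-05) and by 47.3% with shRNA2 (-0.92, -1.19 to -0.66, adjusted p = 5.2e-06), the largest change among the 10 genes with each hairpin against nt-shRNA. Both calls were kept in all 15 alternative settings, with log2 fold changes between -1.0 and -0.70 for shRNA1 and between -1.05 and -0.80 for shRNA2. Between the hairpins, the log2 difference was -0.10 (-0.35 to 0.16, adjusted p = 0.565).

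**Figure D4:**
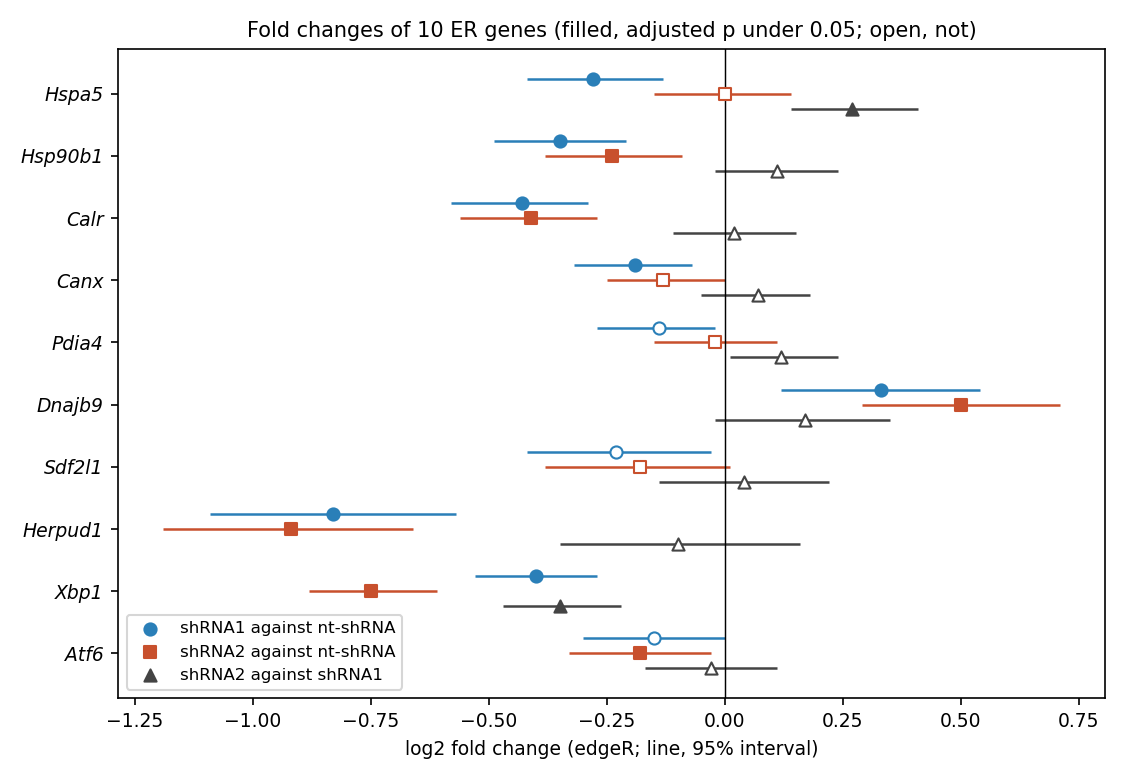
Log2 fold changes of the 10 genes from edgeR (symbols) with 95% intervals (lines) for the 3 comparisons. Filled symbols passed an adjusted p under 0.05, with *Herpud1* at -0.83 and -0.92 and *Dnajb9* at 0.33 and 0.50 for shRNA1 and shRNA2 against nt-shRNA.

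In the direct comparison of shRNA2 with shRNA1, *Hspa5* alone of the 10 was called higher and *Xbp1* alone lower, beside 16.9% and 18.7% of all tested genes. The median log2 difference of the 10 genes was 0.05, and that of all genes -0.00. *Hspa5* and *Xbp1* moved apart from one another, so that *Xbp1* stood at 17.1 and 18.4 TPM per 100 TPM of *Hspa5* with nt-shRNA, at 15.6 to 16.9 with shRNA1 and at 9.71 to 11.8 with shRNA2. Ratios of this kind are formed within a library and do not depend on the scaling between libraries. *Dnajb9* was at 4 and 4.23 TPM per 100 TPM of *Hspa5* with nt-shRNA, at 5.96 to 6.67 with shRNA1 and at 5.63 to 6 with shRNA2. *Herpud1* was at 12.4 and 11.5 with nt-shRNA, at 7.05 to 10.2 with shRNA1 and at 6.02 to 6.74 with shRNA2. *Calr* was at 322 and 308 with nt-shRNA, at 269 to 306 with shRNA1 and at 230 to 256 with shRNA2. *Atf6* was at 3.88 and 4.03 with nt-shRNA, higher with shRNA1 (4.24 to 4.45) and lower with shRNA2 (3.36 to 3.63). These 5 genes were picked because their controls overlapped with neither KD group on this measure. How many of all genes do so was not counted. The controls of *Hsp90b1* and *Sdf2l1* overlapped with shRNA1, and those of *Canx* and *Pdia4* with shRNA2.

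Libraries of a group also differed in these genes. Replicate 1 of nt-shRNA was above replicate 2 for 10 of the 10 genes in TMM-scaled CPM, by a median of 0.10 on the log2 scale (0.04 to 0.26), where it was above for 50.4% of all genes. Replicate 1 of shRNA2 was likewise above replicate 3 for 10 of 10, by a median of 0.08 (50.7% of all genes). Replicate 1 of shRNA1 was above replicate 2 for 9 of 10 (50.8% of all genes). So was replicate 2 of shRNA2 above replicate 3 for 9 of 10 (49.1%). The remaining pairs gave 5 or 6 of 10. *Herpud1* and *Sdf2l1* were the most variable among the shRNA1 libraries, with replicate 3 highest for both.

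The 3 genes closest to *Hspa5* across the 8 libraries, by root mean square distance of centred log2 CPM, were *Ccdc59* (distance 0.041), *Rbm39* (0.045) and *Ctdnep1* (0.049). *Ccdc59*, for example, was at 59.2 and 56.5 CPM with nt-shRNA, 48.2, 47.8 and 48.6 with shRNA1 and 58.9, 62.0 and 54.3 with shRNA2. Of 17444 genes ranked by this distance, *Pdia4* was the closest of the other ER genes (rank 105), followed by *Canx* (433) and *Hsp90b1* (591). *Xbp1* (10782) and *Herpud1* (12283) were the farthest of them. The distance is a description over libraries that fall into 3 groups.

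Other ER genes were counted in lists drawn up from general knowledge, but with earlier results of these data known. The lists leave out the 10 genes above. Their counts stand beside 17.1% of all tested genes lower and 13.8% higher with shRNA1, and 28.7% lower and 27.2% higher with shRNA2. Of 30 other ER chaperones and folding enzymes, 16 fell and 1 rose with shRNA1 (median -0.22), and 17 fell and 5 rose with shRNA2 (median -0.23). With total counts as the only scaling, 9 were lower and 5 higher with shRNA1 (median -0.10), 14 lower and 5 higher with shRNA2 (median -0.14), and without nt-shRNA replicate 1, 10 were lower and 0 higher with shRNA1. With shRNA2, 15 were lower and 2 higher without nt-shRNA replicate 2. *Sil1*, the nucleotide exchange factor of BiP, was at 48.1 and 39.0 CPM with nt-shRNA, at 26.7, 24.4 and 30.5 with shRNA1 and at 15.4, 13.0 and 18.1 with shRNA2. It fell by 0.67 with shRNA1 and by 1.49 with shRNA2 on the log2 scale (edgeR adjusted p = 2.1e-04 and 7.2e-09). *Creld1* (-0.82 and -1.16) and the thioredoxin-domain protein gene *Txndc5* (-0.45 and -0.86) fell as well, whereas *Hspa13*, an HSP70 relative, rose (0.29 and 0.59). The other genes of this list that rose with shRNA2, named after their values were seen, were *Creld2* (0.32), *Dnajb11* (0.26), *Manf* (0.24) and *Dnajc10* (0.21).

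Among 16 UPR sensors and regulators, 4 fell and 1 rose with shRNA1 (median -0.07), and 6 fell and 3 rose with shRNA2 (median -0.08), not far from the shares of all genes. With total counts as the only scaling, 1 was lower and 2 higher with shRNA1, and 6 lower and 6 higher with shRNA2, with medians of 0.04 and 0.01. The 4 lower genes with shRNA1 became 2 without nt-shRNA replicate 1 and 1 without replicate 2, and without the latter 5 were lower and 1 higher with shRNA2. *Nfyc*, a subunit of the factor that binds the CCAAT part of the ERSE, rose by 0.47 and 0.98 on the log2 scale (edgeR adjusted p = 4.6e-04 and 2.7e-08). *Nfya*, another subunit, was at -0.08 with shRNA1 (adjusted p = 0.379) and fell with shRNA2 (-0.39, adjusted p = 4.3e-05). *Nfyb*, a further subunit named after its calls were seen, was called lower with both hairpins. *Creb3l2*, a membrane-bound relative of ATF6, fell (-0.30 and -0.59).

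In the PERK-ATF4 branch, 7 of 15 genes fell and 0 rose with shRNA1 (median -0.33), and 8 fell and 1 rose with shRNA2 (median -0.45), beside 17.1% and 28.7% of all genes lower. The shRNA1 median was -0.19 without shRNA1 replicate 2 and -0.21 without nt-shRNA replicate 1, with 6 genes lower in each. With shRNA2, 3 genes were higher and 8 lower without shRNA2 replicate 3, with total counts as the only scaling and with the replicate block. *Ddit3*, which encodes the stress factor CHOP, was at 93.7 and 62.5 CPM with nt-shRNA, at 22.7, 19.9 and 35.9 with shRNA1 and at 22.7, 25.6 and 20 with shRNA2. Its log2 fold change was -1.56 with shRNA1 and -1.78 with shRNA2 (edgeR adjusted p = 2.5e-06 and 9.6e-08). *Nupr1* (-1.01 and -1.64) and *Vldlr* (-0.78 and -1.52) fell too, while *Sesn2* was at -0.10 with shRNA1 (adjusted p = 0.544) and rose by 0.59 with shRNA2 (adjusted p = 2.1e-04). *Ddit3* and *Herpud1* were both higher in nt-shRNA replicate 1 than in replicate 2.

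For ER-associated degradation, the process of *Herpud1*, 9 of 30 genes fell and 2 rose with shRNA1 (median -0.09), and 8 fell and 8 rose with shRNA2 (median 0.02), so that the counts with shRNA2 were close to the shares of all genes. The shRNA1 counts did not hold, with 2 lower and 8 higher (median 0.02) with total counts as the only scaling, 2 lower and 0 higher without nt-shRNA replicate 1, and 4 lower and 1 higher without replicate 2. With shRNA2, total counts as the only scaling gave 6 lower and 12 higher (median 0.11), and 6 were lower and 5 higher without nt-shRNA replicate 2. *Edem2*, a gene of the ER mannosidase family (-0.30 and -0.81), fell with both hairpins. *Ufd1*, a partner of the ATPase p97, was at 0.16 with shRNA1 (adjusted p = 0.125) and rose with shRNA2 (0.48, adjusted p = 4.1e-05). In the translocon and signal peptidase list, 10 of 25 genes fell and 0 rose with shRNA1 (median -0.14), and 12 fell and 2 rose with shRNA2 (median -0.17), with *Srpr* (-0.44 and -0.73), *Ssr2* (-0.46 and -0.62) and *Ssr4* (-0.41 and -0.60) among those that fell and *Sec63* higher with shRNA2 (0.30). With total counts as the only scaling, 6 were lower and 1 higher with shRNA1 (median -0.02), and 10 lower and 7 higher with shRNA2 (median -0.08). Without nt-shRNA replicate 1, 6 were lower with shRNA1. In the list of N-glycan assembly and transfer, 12 of 28 fell and 1 rose with shRNA1 (median -0.17), and 10 fell and 3 rose with shRNA2 (median -0.09). *Gfpt1* (-0.40 and -0.62), *Rpn2* (-0.31 and -0.47) and *Stt3a* (-0.39 and -0.44) fell, and *Dolk* rose with shRNA2 (0.69). For this list, total counts as the only scaling gave 8 lower and 2 higher with shRNA1 (median -0.06) and 9 lower and 5 higher with shRNA2 (median -0.00).

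**Figure D5:**
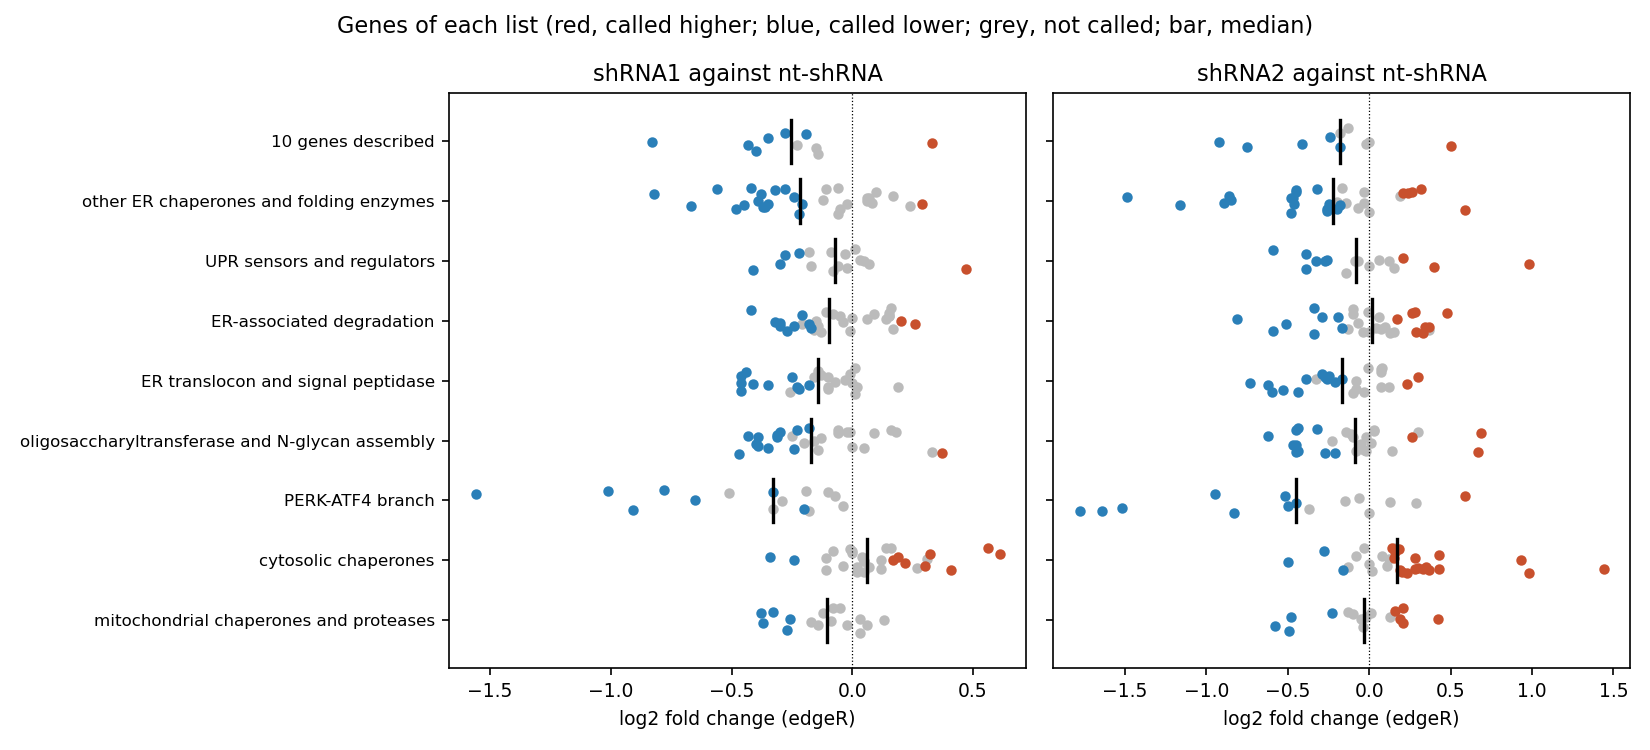
Log2 fold changes of single genes in the 10 genes described and in 8 lists of related genes for shRNA1 (left) and shRNA2 (right) against nt-shRNA (red, called higher; blue, called lower; grey, not called; bar, median). The PERK-ATF4 branch reaches -1.78 and the cytosolic chaperones 1.44 with shRNA2, and the medians of the 5 lists from other ER chaperones to N-glycan assembly lie between -0.23 and 0.02 there.

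The ERSE or ERSE-II was held by the windows of 49 genes in all, of which 33 were tested, the 5 shown above included. Of these 33, 12 fell and 2 rose with shRNA1, beside 18.6% and 14.3% of all tested genes with a window. With shRNA2, 12 fell and 6 rose, beside 30.9% and 27.8%. All 5 of the ER genes shown fell with shRNA1, and *Hsp90b1*, *Calr* and *Herpud1* of them with shRNA2. Without them, 7 of 28 fell with shRNA1 (25%) and 9 of 28 with shRNA2 (32.1%). Of the other folding enzymes with an ERSE or ERSE-II, named after their values were seen, *Pdia6* (-0.42 and -0.48) and *Dnajc3* (-0.28 and -0.48) fell with both hairpins, *Creld2* and *Dnajb11* rose with shRNA2 as given above, and *Ero1lb* was at 0.06 and -0.14. *Calr4*, a gene with an ERSE outside the lists and also named after its values were seen, fell with both hairpins (-0.37 and -1.35).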

How the data were processed

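RNA-seq was analysed for 8 libraries of poly(A)-selected RNA from R1 mESCs (shRNA1, n = 3; shRNA2, n = 3; nt-shRNA, n = 2), labelled as biological replicates. The authors aligned paired reads to mm10 with STAR and deposited raw counts per gene from featureCounts 1.6.2 on GENCODE M24 exons, without strand, multi-mapping or shared fragments. Symbols came from GENCODE M21 for 55144 genes, and no per-sample column was left out.

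After filterByExpr (minimum count 10) and TMM scaling, genes were tested in edgeR 4.0.16 (R 4.3.3, limma 3.58.1) with glmQLFit and glmQLFTest in a fit of all 8 libraries with a coefficient per group, with Benjamini-Hochberg adjustment over all genes tested. Within a group, the chi-square per gene between libraries was 3.119 to 12.023, so that no library repeated another within sampling noise. The code was tested on simulated counts. TPM used the deposited exon lengths. Promoters came from RefSeq (GRCm38.p6).

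Alternatives were DESeq2 1.42.0 (the authors' own tool), edgeR with the size factors of DESeq2 or with total counts as the only scaling, no filter or a filter of 10 counts per library, a fit of the compared groups only, a replicate block, and each library left out. The genes and lists were chosen with earlier results of these data known. Named besides the 10 genes were *Eftud2*, per list the 3 genes of smallest adjusted p for shRNA2 against nt-shRNA, the called gene furthest against most calls of its list, and the 3 genes nearest *Hspa5*. One gene that this rule names is not reported here.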

Additional observations from a re-analysis of the deposited data

How the results depend on the processing

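Over 15 alternatives each, 480 values of the 10 genes and *Eftud2* were recomputed: 426 kept direction and side of the threshold, 23 lost the call, 16 gained one and 15 changed sign, none of them called. *Herpud1*, *Xbp1* and *Calr* with both hairpins, *Hsp90b1* with shRNA1, *Dnajb9* with shRNA2, and *Hspa5* and *Xbp1* between hairpins kept their calls in all 15. For shRNA2 against nt-shRNA, *Hspa5* changed sign with library size alone (0.08), at least 10 counts in every library (0.02), the replicate block (0.04) and without shRNA2 replicate 3 or nt-shRNA replicate 1 (0.06 each), and *Pdia4* in the same settings (0.07, 0.01, 0.00, 0.00 and 0.03), and with each library left out both reached as low as -0.08. Between hairpins, *Calr* changed sign with library size alone (-0.00) and without shRNA1 replicate 2 (-0.02, up to 0.05 over the libraries left out), *Sdf2l1* without shRNA1 replicate 2 (-0.03, up to 0.13), *Herpud1* without shRNA1 replicate 3 (0.08, down to -0.19) and *Atf6* without shRNA2 replicate 3 (0.01, down to -0.06). *Eftud2* with shRNA1 passed the test with DESeq2, its size factors and no filter (-0.18 each) and with only the groups compared (-0.16), but was at -0.06 with library size alone, and ran from -0.20 to -0.16 when each library was left out.

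With each library left out, the 10 genes gave 0 to 1 higher and 4 to 7 lower calls with shRNA1, 1 higher and 3 to 6 lower with shRNA2 (3 without nt-shRNA replicate 1, and 3 with library size alone), and 1 to 2 higher and 1 lower between hairpins, where *Hsp90b1* was the second higher gene without shRNA1 replicate 1. The causes were not tested. Deviations from the group means correlated at 0.022, 0.057 and 0.074 between same-numbered libraries of shRNA1 and shRNA2. Between differently numbered ones they correlated at -0.083 to 0.028. Same-numbered libraries of a KD group and nt-shRNA were at -0.026 to 0.011. These values are small and do not settle whether replicate numbers pair the libraries. With the replicate block, 7 of the 10 genes were lower with shRNA1 and 5 with shRNA2, *Sdf2l1* passed with both hairpins (-0.26 and -0.21), *Atf6* lost its call (-0.16) and *Eftud2* was at -0.21 with shRNA1, where it passed, and at -0.33 with shRNA2. The lowest count behind a value of the 10 genes was 374, the biological coefficient of variation of the fit was 0.0638, and the control group had 2 libraries.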

Other observations

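Chaperones of the cytosol and of mitochondria were counted in the same way. Of 30 cytosolic chaperones and co-chaperones, 8 rose and 2 fell with shRNA1 (median log2 fold change 0.06), and 18 rose and 3 fell with shRNA2 (median 0.17), beside 13.8% and 17.1% of all genes with shRNA1 and 27.2% and 28.7% with shRNA2. The medians were 0.18 with shRNA1 and 0.26 with shRNA2 when total counts were the only scaling. Under library size alone, 19 rose and 1 fell with shRNA1 and 20 rose and 2 fell with shRNA2, and without nt-shRNA replicate 2 the counts were 5 and 2, and 11 and 2. *Hspa8*, the constitutive HSP70 of the cytosol and a relative of *Hspa5*, was at 1046 and 1020 CPM with nt-shRNA, at 1461, 1435 and 1233 with shRNA1 and at 2138, 2235 and 1733 with shRNA2. The 3 groups did not overlap, and it was 1.33-fold higher with shRNA1 (0.41, edgeR adjusted p = 0.00187) and higher by 0.98 on the log2 scale with shRNA2 (adjusted p = 5.3e-08). *Hsph1*, an exchange factor for HSP70 (0.61 and 1.44), and *Dnaja1*, an HSP40 (0.56 and 0.93), rose with both hairpins and were higher with shRNA2 than with shRNA1 in the direct test (0.82 and 0.37, adjusted p = 2.1e-06 and 6.0e-04). *Bag1*, another HSP70 exchange factor, fell (-0.34 and -0.50).

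Of 16 mitochondrial chaperones and proteases, 5 fell and 0 rose with shRNA1 (median -0.11), and 4 fell and 5 rose with shRNA2 (median -0.03), the latter near the shares of all genes (28.7% and 27.2%). Without nt-shRNA replicate 1, 3 fell and 0 rose with shRNA1 and 3 fell and 2 rose with shRNA2, and without replicate 2, 4 fell and 0 rose and 4 fell and 1 rose, and without shRNA2 replicate 1, 4 fell and 2 rose with shRNA2. The protease gene *Lonp1*, at 294.6 and 298.2 CPM with nt-shRNA, was at 217.8, 220.8 and 250.1 with shRNA1 and at 184.6, 203.4 and 205.8 with shRNA2. It fell by 0.37 and 0.58 on the log2 scale (edgeR adjusted p = 4.3e-04 and 7.5e-07), and the co-chaperones *Grpel2* (-0.33 and -0.48) and *Hscb* (-0.38 and -0.49) fell too. Under library size alone 3 fell and 1 rose with shRNA1 and 4 fell and 6 rose with shRNA2, and the medians of this list turned to 0.01 and 0.06.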
